A study of Mus musculus with 2 samples.

Results

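REV-ERBα binding was examined at the loci of 5 genes that define the T helper 17 (Th17) cell: the cytokine genes Il17a, Il17f, Il21 and Il22, and Il23r, which encodes the receptor chain for interleukin-23. The members are the REV-ERBα peaks whose midpoint lies in 1 of 4 windows of the mouse mm9 genome. These windows run from 20.65 to 20.82 Mb on chromosome 1 (Il17a and Il17f, 170 kb), from 37.09 to 37.18 Mb on chromosome 3 (Il21, 90 kb), from 117.59 to 117.7 Mb on chromosome 10 (Il22, 110 kb) and from 67.34 to 67.48 Mb on chromosome 6 (Il23r, 140 kb). They held 17 of the 8884 peaks in the authors' list: 8 in the Il17a-Il17f window, 5 in the Il21 window, 2 in the Il22 window and 2 in the Il23r window. No window was without a peak. That the windows hold these genes was not checked, since no mm9 annotation was used.

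The cells were wild-type primary mouse Th17 cells, differentiated in culture by a published method. There was 1 library precipitated with an antibody to REV-ERBα and 1 library of input DNA from cells with the same labels. The ChIP library had 6390234 tags, a tag being 1 aligned read. Input entered through the tags listed for each peak, scaled to the depth of the ChIP library. With 1 library of each kind no comparison has a replicate behind it, and every interval below covers counting error only. The labels used here do not give the strain, sex or age of the animals or the length of culture. Input DNA was the only control, and it does not show what the antibody binds besides REV-ERBα. No RNA was measured, and the Th17 identity of the cells could not be checked against marker genes.

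Th17 cells are CD4 T cells that defend mucosal surfaces and drive several autoimmune diseases. Their lineage-defining factor is the nuclear receptor RORγt, which activates the cytokine genes through a DNA element made of AGGTCA with an A/T-rich flank on its 5′ side. REV-ERBα belongs to the same receptor family and is part of the circadian clock. It binds the same kind of element and represses transcription by recruiting corepressors. The title of the series puts the question as a competition between both receptors, and the genes described here are among those that RORγt is known to act on.

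To show that element in the genes concerned, the 250 bases before the transcription start were taken from RefSeq (build GRCm38.p6), where each of the 5 genes has 1 entry. They were searched on both strands for AGGTCA and for longer forms that contain it. AGGTCA was present before the starts of Il17a, Il17f and Il23r, which are printed for that reason, and these letters were not found in the stretches before Il21 and Il22. All 3 sequences read 5′ to 3′ along the gene. Capitals mark AGGTCA or its reverse complement TGACCT, and in Il23r also the 4 bases that make ATGTAGGTCA. The stretches lie at chr1:20730655-20730904 on the plus strand (Il17a), chr1:20784271-20784520 on the minus strand (Il17f) and chr6:67491856-67492105 on the minus strand (Il23r), all in GRCm38.p6.
Il17a: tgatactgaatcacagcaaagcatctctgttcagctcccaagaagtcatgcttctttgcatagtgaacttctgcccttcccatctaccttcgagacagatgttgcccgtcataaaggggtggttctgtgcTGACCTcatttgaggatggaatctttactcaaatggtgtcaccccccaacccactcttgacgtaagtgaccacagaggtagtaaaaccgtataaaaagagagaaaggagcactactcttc
Il17f: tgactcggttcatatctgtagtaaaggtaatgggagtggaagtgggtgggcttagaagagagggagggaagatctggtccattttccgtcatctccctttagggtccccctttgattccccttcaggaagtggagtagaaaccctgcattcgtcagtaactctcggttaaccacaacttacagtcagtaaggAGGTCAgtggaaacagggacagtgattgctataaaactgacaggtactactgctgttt
Il23r: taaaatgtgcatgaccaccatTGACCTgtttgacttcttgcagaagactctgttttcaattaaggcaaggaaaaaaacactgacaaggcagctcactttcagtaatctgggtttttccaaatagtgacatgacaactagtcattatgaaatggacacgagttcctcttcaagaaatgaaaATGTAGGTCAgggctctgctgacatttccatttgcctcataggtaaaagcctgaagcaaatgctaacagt

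In Il17a the match was on the opposite strand, 120 to 115 bases before the start. In Il17f it was on the gene's own strand, 58 to 53 bases before the start. Il23r had a match on the opposite strand at 229 to 224 bases and another on its own strand at 66 to 61 bases. The second Il23r match was the end of ATGTAGGTCA and so has the form ATNT directly followed by AGGTCA, which 0.143% of the 32851 promoters in the table hold on either strand. AGGTCA alone is common and was found in 14.0% of those promoters. AANT directly followed by AGGTCA, the other A/T form searched, occurs in 0.177% of promoters and in none of the 5 genes. Further A/T-rich flanks were not searched. The direct repeat of AGGTCA with any 2 bases between the copies occurs in 0.00913% and in none of the 5. The ATNT form was added after the sequences had been seen. These letters describe the reference sequence, and whether REV-ERBα binds them was not tested. The GRCm38.p6 positions cannot be set against the mm9 peaks, even where the numbers look alike, as they do at Il17a, so none of the peaks below is placed relative to a start, exon or intron.

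A second list, of 29 other genes of Th17 differentiation, signalling and the clock, gives the same search for the wider pathway. An entry was found for 23 of them, with 26 promoters in all. AGGTCA, which 14.0% of all promoters in the table hold, was found before the starts of 5 genes: Ccl20 and Ccr6, a chemokine and its receptor that guide Th17 cells, Hif1a, a factor of the hypoxia response, Il21r, the receptor for interleukin-21, and Nr1d2, which encodes REV-ERBβ. Ccr6 also held the form with AANT, which 0.177% of all promoters hold. Peaks were not assigned to these genes.

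At Il17a and Il17f, which encode the cytokines that name the lineage, REV-ERBα peaks formed a compact group in an otherwise empty stretch. The 8 peaks lay within 99.1 kb, and the window had 47.1 peaks per Mb (95% Poisson interval 20.3 to 92.7), where chromosome 1 as a whole had 3.52. Peaks of a group are not independent, so this interval, like that for Il21 below, is too narrow. The nearest peak on the lower side was 4037.4 kb away and the nearest on the upper side 956 kb away. Of the 8864 gaps between neighbouring peaks in the list, 1.13% were at least as long as the first and 6.59% at least as long as the second. In the RefSeq gene order Il17a and Il17f are direct neighbours among protein-coding genes, between Pkhd1 and Mcm3.

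The peak with the most tags in this window, at chr1:20730719-20731025, had 33 ChIP tags (95% interval 22.7 to 46.3), 2.8 scaled input tags and a caller's score of 27. The score is the height of the peak as the caller counts it, with at most 1 tag per bp. This peak was 11.6-fold over input (95% interval 3.65 to 59.3) and 11.0-fold over the surrounding 10 kb, and 4.21% of all listed peaks had as many tags. On its lower side the peak at chr1:20721642-20721948 had 18 tags, 0.9 scaled input tags and a score of 15. Further down, chr1:20716033-20716339 had 19 tags, 0.9 scaled input tags and a score of 19. These 3 peaks followed each other at 5.61 and 9.08 kb. Their tag intervals overlap, and whether the count of 33 differs from the other counts was not tested.

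A further pair lay 5.42 kb apart on the upper side. The peak at chr1:20744539-20744845 had 24 tags (15.4 to 35.7) and a score of 23. No input tag fell on it, which the list gives as 0.5 scaled tags. Its listed fold of 50.8 is set by that value. The 95% interval of its fold over input, which counts the error of both libraries, has a lower limit of 6.37 and no upper limit. Its partner at chr1:20749957-20750263 had 17 tags, 0.9 scaled input tags and a score of 14.

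The weakest peaks of the window lay farther along the chromosome. The peak at chr1:20781637-20781943 had 13 tags, no input tag and a score of 11, and the lower limit of its fold over input was 3.22. The peak at chr1:20782636-20782942 had 12 tags, 1.9 scaled input tags and a score of 9, which is the caller's threshold. This pair stood 0.999 kb apart, and 1.39% of gaps in the list are as short or shorter. Their folds over the local 10 kb, 4.20 and 4.27, stood close to the 4-fold that the caller requires. The last peak, at chr1:20815118-20815424, had 14 tags, 0.9 scaled input tags and a score of 13, and stood alone, 32.5 kb from its nearest neighbour and 4.73 kb inside the edge of the window. The 8 peaks thus ranged from 12 to 33 tags with a median of 17.5, and 7 of them had a neighbour within 10 kb, beside 33.7% of all listed peaks.

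**Figure D1:**
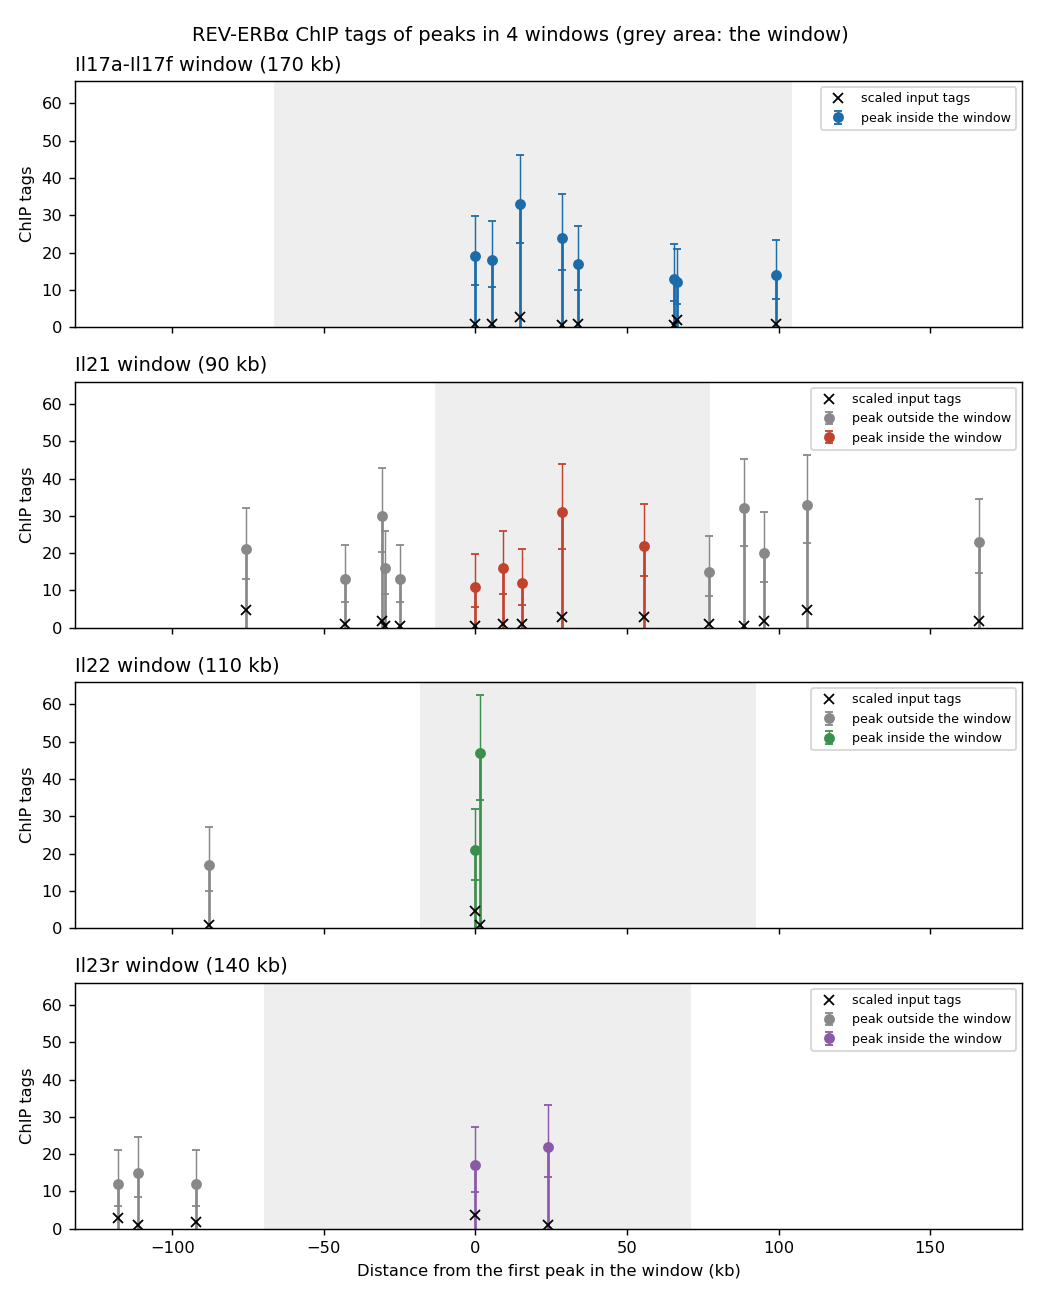
ChIP tags of each peak (circles, with 95% Poisson intervals) and scaled input tags (crosses) against distance from the first peak of the window in kb, for the 4 windows (grey areas) and 100 kb on either side. The 8 peaks of the Il17a-Il17f window have no neighbour in either flank, whereas the Il21 window has 5 peaks in each flank, and both Il22 peaks stand 1.54 kb apart.

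At Il21, the gene of a cytokine that Th17 cells make and that acts back on them, the window held 5 peaks in 55.5 kb. This is 55.6 peaks per Mb (95% interval 18.0 to 130), where chromosome 3 had 3.26. In the RefSeq gene order Il21 lies between Il2, which encodes the T cell growth factor interleukin-2, and Cetn4. The leading peak at chr3:37131620-37131926 had 31 tags (21.1 to 44.0), 2.8 scaled input tags and a score of 28, and was 10.9-fold over input (3.41 to 55.9). As many tags were listed for 5.58% of all peaks. The next by tags, at chr3:37158598-37158904, had 22 tags, 2.8 scaled input tags and a score of 16. Its fold over input was 7.76 (2.33 to 40.5), below that of the other Il21 peaks as listed, although the intervals overlap.

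The 3 weaker Il21 peaks formed a row on the lower side at distances of 9.09 and 6.19 kb. The first, chr3:37103103-37103409, had 11 tags (5.49 to 19.7), no input tag and a score of 10, and the lower limit of its fold over input was 2.66. The second, chr3:37112197-37112503, had 16 tags, 0.9 scaled input tags and a score of 13. The last of the row, chr3:37118386-37118692, had 12 tags, 0.9 scaled input tags and a score of 12. The first and the last were 4.41-fold and 4.09-fold over the local region, near the required 4-fold. The leading peak exceeded both in tags beyond the counting intervals, since its lower bound of 21.1 lies above their upper bounds of 19.7 and 21.

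The edge of the Il21 window decides its number of peaks. A peak of 15 tags at chr3:37180025-37180331 has its midpoint 0.178 kb outside the upper edge, and the nearest inside lies 21.2 kb from it. On the lower side a peak of 13 tags lies 11.6 kb outside.

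At Il22, the gene of a cytokine that acts on epithelial cells, the window held a close pair with the highest tag count of all 17 peaks. The peak at chr10:117609504-117609810 had 47 tags (95% interval 34.5 to 62.5), 0.9 scaled input tags and a score of 34. It was 49.7-fold over input and 14.7-fold over the local region. The interval of the first ratio runs from 8.50 to 2005.1, since a lone input tag stands behind it. As many tags were found in 0.507% of the listed peaks, and 41 peaks had more. Its neighbour at chr10:117607964-117608270, 1.54 kb away, had 21 tags (13.0 to 32.1), 4.7 scaled input tags and a score of 19.

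The 2 Il22 peaks differed in tags beyond their counting intervals. Their input differed in the opposite direction, with 5 tags at the weaker peak and 1 at the stronger, and the weaker was 4.44-fold over input (1.63 to 15.1), near the required 4-fold. A fold as high or higher was listed for 96.4% of all peaks. Gaps of 1.54 kb or less made up 3.20% of the list. The remaining 90.3 kb of the window above the pair had no listed peak, and the next one lay 389 kb away. In the RefSeq gene order Il22 stands between Mdm1 and Iltifb, a close copy of Il22. How reads that align to both copies were treated is not given in the sources used here, so peaks on sequence shared by both could be uncertain.

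At Il23r, which encodes the receptor chain through which interleukin-23 maintains Th17 cells, the window held 2 peaks 23.9 kb apart. The peak at chr6:67433249-67433555 had 22 tags (13.8 to 33.3), 0.9 scaled input tags and a score of 21, and was 23.3-fold over input (3.76 to 960). The peak at chr6:67409384-67409690 had 17 tags (9.90 to 27.2), 3.8 scaled input tags and a score of 13, and was 4.50-fold over input (1.47 to 18.4). Their tag counts overlap within the intervals, and so do their folds over input. Over the local region they stood at 10.1-fold and 9.97-fold.

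Neither Il23r peak had a neighbour within 10 kb, which 33.7% of all listed peaks have. If the peaks were independent, 0 of 2 would allow a share of up to 84.2% (exact 95% interval). Both peaks share the 23.9 kb gap between them and are not independent, so this interval is too narrow. Above them the chromosome had no listed peak for 3331.3 kb, a gap that 1.62% of gaps reach. Below them the next peak was 92.2 kb away. In the RefSeq gene order Il23r is a direct neighbour of Il12rb2, which encodes a chain of the interleukin-12 receptor.

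To set the windows against the rest of the genome, the stretch from the first to the last peak of each chromosome was divided into tiles of a window's own length. Of 14930 tiles of 170 kb, 26.4% held at least 1 peak and 0.449% held at least 8, as the Il17a-Il17f window did. For the Il21 window, 18.0% of 28206 tiles of 90 kb held a peak and 0.610% held at least 5. For the Il22 window, 20.3% of tiles of 110 kb held a peak and 9.59% at least 2, and for the Il23r window the shares were 23.8% and 12.1% of tiles of 140 kb. Tiles with a peak, or with 2 peaks, were thus not rare, while tiles with as many as the Il17a-Il17f and Il21 windows made up under 1% in each case. The tiles include gene-poor and unmappable stretches whereas the windows were laid around genes, and no test was made. Windows were also chosen with earlier results of these data known, so the shares are a description only.

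The Il22 peaks held 68 tags (95% interval 52.8 to 86.2), and 1.94% of tiles of its window's length held as many, fewer than the 9.59% with as many peaks. The Il17a-Il17f peaks held 150 tags, reached by 0.482% of tiles, the Il21 peaks 92, reached by 0.535%, and the Il23r peaks 39, reached by 7.25%.

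**Figure D2:**
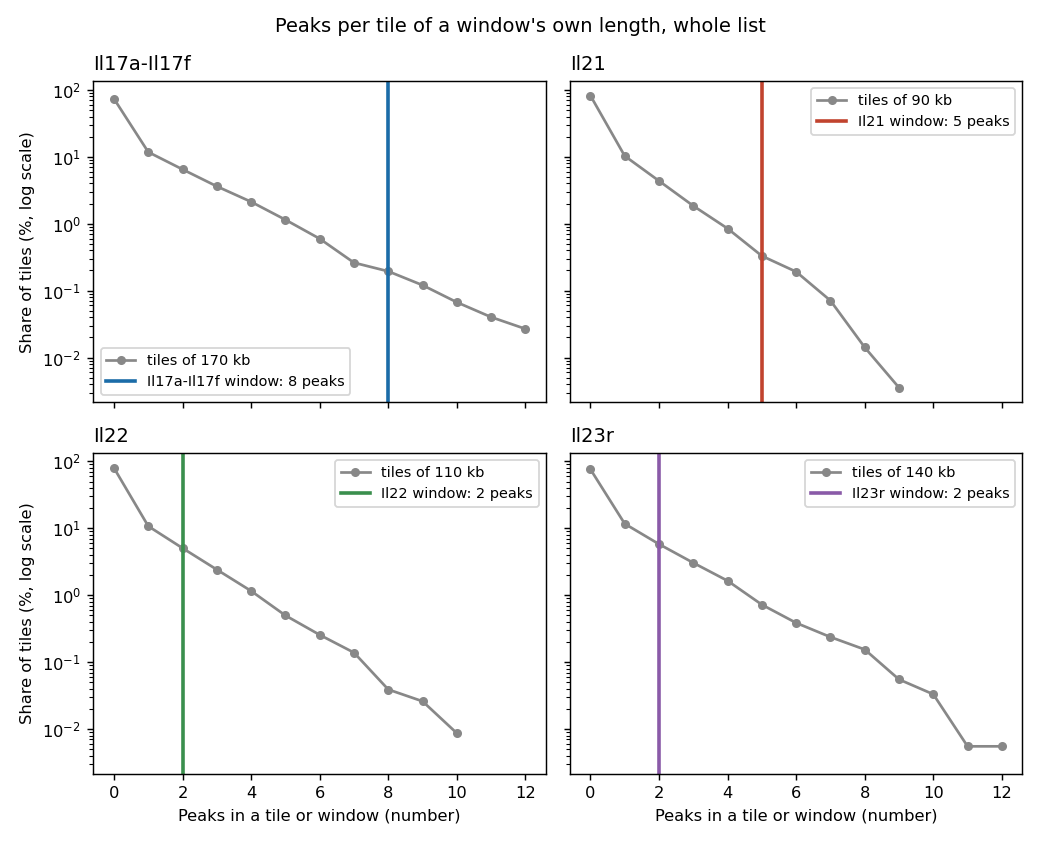
Share of tiles (%, log scale) by the number of peaks they hold, for tiles of each window's length over the whole list (grey), with the number in the window as a coloured line. The lines for Il17a-Il17f (8 peaks) and Il21 (5 peaks) fall where under 1% of tiles lie, and those for Il22 and Il23r (2 peaks each) fall in the commoner range.

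The 17 peaks spread over much of the list's range of strength. Their median was 18 tags, with a range of 11 to 47, beside a median of 15 in the whole list. At least 15 tags were found in 12 of the 17, beside 51.3% of all listed peaks, and at least 22 tags in 6, beside 20.2%. The median score was 15 beside 13. The 17 made up 0.191% of the listed peaks and held 349 tags, 0.217% of the tags in peaks. That total includes 1 peak of 10556 tags, where every other listed peak had 68 or fewer.

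Enrichment over input had a median of 16.9 in the 17 peaks and 10.6 in the list. At least 8-fold was listed for 13 of 17 (76.5%, exact 95% interval 50.1 to 93.2), beside 61.5% of all peaks, and at least 16-fold for 9 of 17 (52.9%, 27.8 to 77.0), beside 28.1%. Both intervals include the share in the list, and both are too narrow, since peaks of a group are not independent. No input tag was listed at 3 of the 17, beside 16.8%. Their listed folds of 50.8, 27.5 and 23.3 are set by the 0.5 scaled tags given in place of 0. All 3 count among both the 13 and the 9, although the lower limits of their folds were 6.37, 3.22 and 2.66. The shares in the list include such peaks as well. The lowest folds, 4.44 and 4.50, belonged to the weaker peak at Il22 and the weaker at Il23r, and the highest, 50.8, to the Il17a-Il17f peak without an input tag.

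Over the local 10 kb the 17 peaks had a median of 8.98, beside 7.78, and 9 of 17 reached 8-fold, beside 47.5%. The fold over the local region exceeded that over input in 3 of 17, beside 36.0% of the list, and in none of the 8 peaks at Il17a and Il17f. A neighbour within 10 kb was found for 12 of the 17 peaks (70.6%, 44.0 to 89.7), beside 33.7%. In rows of at least 3 peaks, each within 10 kb of the next, stood 6 of the 17, beside 9.71%. These 6 were the lower 3 peaks at Il17a and Il17f and the lower 3 at Il21. Peaks of a row are not independent, so these intervals are too narrow.

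**Figure D3:**
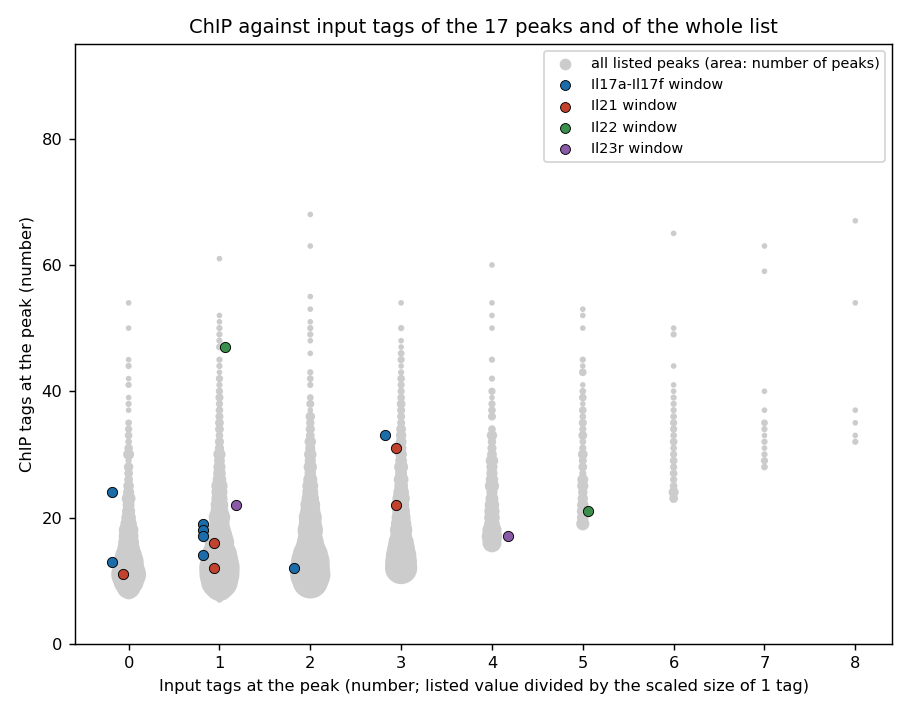
ChIP tags against input tags for the 17 peaks (coloured by window, shifted sideways for visibility) and for all listed peaks of under 100 ChIP and at most 8 input tags (grey, area by number of peaks). The Il22 peak of 47 tags stands high at 1 input tag, while the other Il22 peak and the weaker Il23r peak lie near the lower border set by the 4-fold filter.

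**Figure D4:**
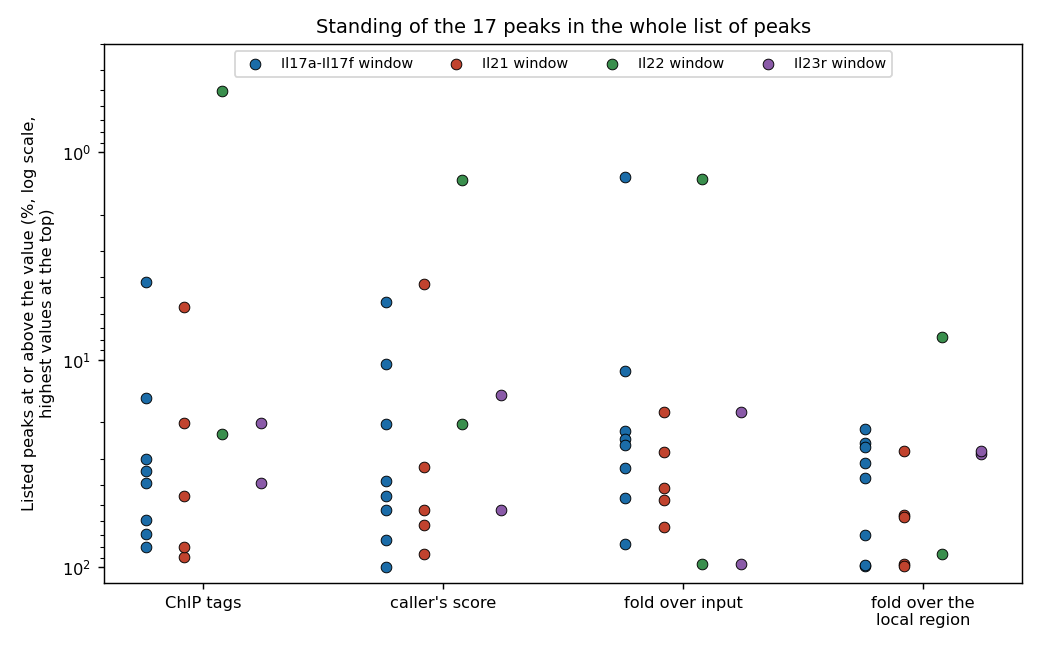
Percentage of all listed peaks with a value as high as each of the 17 peaks, on a log scale with the highest values at the top, for ChIP tags, score, fold over input and fold over the local region. The Il22 peak of 47 tags is at 0.507% by tags and 1.34% by fold over input, and the 8 Il17a-Il17f peaks run from 4.21% to 80.2% by tags.

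Across the measures, the order of the loci depended on what was counted. By number of peaks the Il17a-Il17f window led with 8, by peaks per Mb the Il21 window with 55.6, and by the tags of a single peak the Il22 window with 47. The first 2 orders depend on the lengths and edges of the windows. With windows widened by 50 kb, Il21 had 13 peaks and Il17a-Il17f 8. The intervals of peaks per Mb overlap, with 18.0 to 130 at Il21 and 20.3 to 92.7 at Il17a-Il17f. The leading peaks had 47 tags at Il22, 33 at Il17a and Il17f, 31 at Il21 and 22 at Il23r. The intervals of the first 3 overlap, and those of 33, 31 and 22 overlap as well. The Il22 peak, with a lower bound of 34.5, exceeded the leading Il23r peak, with an upper bound of 33.3. The caller required a score of 9, so weaker binding in the rest of the windows would not be listed.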

How the data were processed

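The peak list of the ChIP sample was the file used. Per the submitters' processing notes the tools were CASAVA 1.8.2, Bowtie and HOMER and the build was mm9; no source used here gives other versions or read filters. Peaks of 306 bp were called with HOMER findPeaks against input, per the file headers, at a false discovery rate of 0.001 (9 tags). Filters of 4-fold and p 1e-04 over input and over the local 10000 bp followed. The lowest listed score was 9, while total tags went down to 7, so the 9 was read as a limit on the score.

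Total tags are deposited counts without normalization. Scaled input tags and normalized tags are deposited signal values. Fold values are the authors' ratios, p-values the authors' Poisson values (not retested), and the deposited score is the caller's peak height. Tags divided by the deposited fold gave steps of 0.945 scaled tags per input tag, whole to within a relative 0.02 in all 7392 peaks above the lowest value. The other 1492, listed at 0.5, were read as no input tag.

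Members, windows and gene lists were chosen with earlier results of these data known. The text names all 5 genes, every peak in their windows and the nearest peaks outside. Intervals are exact 95% Poisson for counts, Clopper-Pearson for shares, and binomial for folds of ChIP over input tags, computed with scipy 1.17.1, pandas 2.3.3 and numpy 2.4.6 under Python 3.11.15; figures were drawn with matplotlib 3.10.9. Window counts, tiles, motif search and intervals were tested on simulated data. Promoters and gene order came from RefSeq tables of GRCm38.p6; the sequence under the peaks was not analysed here.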

Additional observations from a re-analysis of the deposited data

How the results depend on the processing

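Of 32 alternatives, 31 were planned and 1, a motif, was chosen after seeing the data; counts within 1.5 times were taken as unchanged. The 17 peaks became 13 at 8-fold over input, 12 at the median tags of the list and 13 with windows narrowed by 20 kb, and stayed 17 by any overlap. Windows widened by 50 kb gave 28 peaks, with 13 at Il21 and 5 at Il23r; the wider windows take in more sequence, and the Il17a-Il17f count stayed 8. With at least the median tags, 5 peaks were left at Il17a-Il17f and 3 at Il21. At 8-fold or more, 1 was left at Il22 and 1 at Il23r. Narrowing by 20 kb left 0 at Il22, since its pair lies 18.1 and 19.7 kb from the lower edge. Tiles of the window's own chromosome held a peak in 25.6% (Il17a-Il17f), 16.6% (Il21), 23.3% (Il22) and 24.5% (Il23r). The median of 18 tags was 15 by score and 18 at 8-fold or more. The element with AANT before AGGTCA was found in 0 of 5 promoters and that with ATNT in 1. No paired analysis was possible because there was 1 ChIP sample and 1 input sample, and leaving out a replicate was not possible for the same reason. At 6390234 tags, counts of 11 to 47 carry wide intervals, and folds over input rest on 0 to 5 input tags.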

Other observations

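Around the Il21 window the peaks did not end at its edges. Within 100 kb on either side lay 5 peaks below it and 5 above it, so that 15 peaks stood between 37027275 and 37269629 on chromosome 3, a span of 242 kb with 308 tags. Their tags ran from 11 to 33 with a median of 20. Outside the window, the peak at chr3:37212395-37212701 had 33 tags (95% interval 22.7 to 46.3) and 4.7 scaled input tags, and the peak at chr3:37191576-37191882 had 32 tags (21.9 to 45.2) and no input tag. The peak at chr3:37072228-37072534 had 30 tags (20.2 to 42.8). These counts overlap with the 31 tags of the leading peak inside the window. Which gene they lie nearest to was not determined, since no mm9 annotation was used.

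Below the Il23r window 3 weaker peaks lay within 100 kb, with 12 to 15 tags, and none lay within 100 kb above it. The Il22 window had 1 peak of 17 tags within 100 kb below it and none above.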
